A study of Mus musculus with 12 samples.

Results

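ADAMTS-like proteins are secreted glycoproteins of the extracellular matrix (ECM). They carry the thrombospondin type 1 repeats of the ADAMTS metalloproteases but lack the protease domain. Several of them bind fibrillin microfibrils, the scaffold on which elastic fibres form and on which latent TGF-β is held. Loss of ADAMTSL2 in people causes geleophysic dysplasia, a disorder of short stature and thickened skin in which TGF-β signaling is altered. The genes described here were Adamtsl2, Adamtsl3 and Adamtsl5, 3 of the 420 genes in the tables. They were chosen by their measured values, since they were proposed for their levels over the 4 groups of these libraries. Their differences between groups are therefore given as a description, without a test. The tables held 6 genes of the family in all, and the others were Adamtsl1, Adamtsl4 and Thsd4 (also called Adamtsl6).

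The RNA came from mouse pancreatic stellate cells (PSCs), the resident fibroblast-like cells of the pancreas that turn into matrix-producing myofibroblasts when activated. They were isolated by density centrifugation from a Rosa26CreERT2 PKN2 fl/fl mouse on a C57BL/6 background and immortalized. PKN2 KO PSCs had lost the kinase PKN2 after 4-hydroxytamoxifen switched on the Cre recombinase, driven from the ubiquitous Rosa26 locus, and WT PSCs had not. Whether the WT cells received 4-hydroxytamoxifen is not given in the sources used here. The series describes 3 lines per genotype, whereas the methods describe cells of 1 mouse. Cells of both genotypes were kept for 72 h with vehicle or with TGF-β1 at 5 ng/ml, and an amplicon panel of ECM and adhesion genes was sequenced. The 12 libraries, lettered A, B and C in every group, fell into WT vehicle, PKN2 KO vehicle, WT TGF-β1 and PKN2 KO TGF-β1 (n = 3 each). No source says how cultures of different letters are related, so the spread between libraries may be partly technical.

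The libraries held 1074095 to 1473153 reads. Pkn2 itself was not among the genes in the tables, so the deletion could not be checked from them. Of 14 stellate cell or fibroblast markers 8 were in the tables, and their summed normalized counts ran from 229936 to 514561 per library. Single markers moved within this sum. Lum, too low to be tested, was at 0 in all TGF-β1 libraries. The log2 change of Dcn with TGF-β1 was -3.24 in WT and -2.81 in PKN2 KO. Changes of Vcan were 0.72 and 0.18, and those of Postn 0.96 and 0.66. The 1 epithelial marker in the tables, Cdh1, reached at most 4.72. The sum of 3 endothelial markers lay between 1.06 and 6.36 in vehicle and between 5.47 and 14.6 after TGF-β1, with Sele at 0 throughout. The sum of 4 leukocyte markers lay between 16.3 and 31.8 in vehicle and between 4.30 and 9.76 after TGF-β1, with Itgal at 0 throughout. These sums moved with TGF-β1, as the genes below did, and their part in those differences was not tested. In bulk RNA fewer cells of a type and less RNA per cell cannot be told apart.

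The 3 genes lie on different chromosomes. In GRCm38 (mm10), Adamtsl2 spans chr2:27079379-27108981 on the plus strand, with 18 coding exons and 2871 coding bases in its longest GENCODE transcript. Adamtsl3 is larger and spans chr7:82335694-82614450 on the plus strand, with 30 coding exons and 5118 coding bases. Adamtsl5, the shortest, spans chr10:80339110-80348412 on the minus strand, with 11 coding exons and 1455 coding bases.

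The 250 bases before the RefSeq start of each gene are shown. They were read in the direction of the gene from GRCm38.p6, at chr2:27079129-27079378 (plus strand) for Adamtsl2, chr7:82335444-82335693 (plus strand) for Adamtsl3 and chr10:80348449-80348698 (minus strand) for Adamtsl5. Capitals mark CAGAC, the letters of a SMAD binding element, or GTCTG where it lies on the other strand.
Adamtsl2: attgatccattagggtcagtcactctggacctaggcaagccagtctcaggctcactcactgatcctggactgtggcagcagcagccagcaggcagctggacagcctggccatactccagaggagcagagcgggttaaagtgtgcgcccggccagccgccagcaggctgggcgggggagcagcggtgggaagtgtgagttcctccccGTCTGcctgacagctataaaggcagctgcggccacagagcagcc
Adamtsl3: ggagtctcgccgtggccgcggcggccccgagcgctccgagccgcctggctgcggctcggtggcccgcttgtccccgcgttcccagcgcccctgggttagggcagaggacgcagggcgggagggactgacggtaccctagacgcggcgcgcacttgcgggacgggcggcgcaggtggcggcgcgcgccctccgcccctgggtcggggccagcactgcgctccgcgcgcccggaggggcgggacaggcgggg
Adamtsl5: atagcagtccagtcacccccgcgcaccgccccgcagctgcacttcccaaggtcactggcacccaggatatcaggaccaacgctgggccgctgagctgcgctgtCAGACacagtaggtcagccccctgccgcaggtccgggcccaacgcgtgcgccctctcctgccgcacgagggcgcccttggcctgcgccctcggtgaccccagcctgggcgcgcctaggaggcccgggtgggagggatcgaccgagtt
The Adamtsl2 window held 1 such match, 44 to 40 bases before the start, and the Adamtsl5 window held 1, 147 to 143 bases before it. Adamtsl3 and Adamtsl4 had none in their windows. The matches did not follow the direction of change with TGF-β1, since Adamtsl2 and Adamtsl3 rose and Adamtsl5 and Adamtsl4 fell. Whether any match acts in these cells was not tested. A match to CAGAC is common, since 42.2% of 32851 RefSeq windows of this length held one on either strand. GGAATG (TEAD, in 12.6% of windows), TGANTCA (AP-1, in 6.75%) and the CArG box of SRF (in 1.47%) were searched on both strands too, and no window of the 3 genes or of Adamtsl4 held them. GC content was 62.8% in the Adamtsl2 window, 80.0% in that of Adamtsl3 and 70.8% in that of Adamtsl5, against a median of 52.4% over all windows.

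Adamtsl2, which binds fibrillin and the latent TGF-β binding protein LTBP1, was almost silent in untreated WT cells and rose in steps through the 4 groups. Levels are normalized counts, that is reads divided by the factor the authors gave each library, listed in the order A, B and C. In WT vehicle they were 2.36, 2.03 and 1.97 (2.12 ± 0.21, SD, n = 3), from 2, 3 and 2 reads. In PKN2 KO vehicle they were 12.9, 7.07 and 9.54 (9.83 ± 2.92). In WT TGF-β1 they were 97.9, 75.9 and 106.7 (93.5 ± 15.9). All 3 libraries of each of these groups lay above all those of the group before it. In PKN2 KO TGF-β1 they were 400.8, 289.7 and 325.9 (338.8 ± 56.6), again above every library of the other groups.

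On the log2(normalized count + 1) scale, used for all log2 values here, Adamtsl2 in PKN2 KO exceeded that in WT by 1.76 in vehicle (standard error, SE, 0.31) and by 1.85 after TGF-β1 (SE 0.31). With a pseudocount of 5 the first of these was 1.04. At the pseudocount of 1 the differences ranked 4 and 9 from the highest among the 238 genes tested. Since the described genes were chosen on these libraries, nothing is read from these ranks or from those given below. As ratios of reads per factor they were 4.46-fold (95% interval 1.92 to 12.0, from 30 and 7 reads) and 3.59-fold (3.15 to 4.12, from 897 and 290 reads). The exact binomial intervals leave out the spread between libraries. They also treat reads as independent molecules, which amplified reads are not, so they may be too narrow even for counting error. The interval in vehicle was wide because WT cells gave 7 reads in all.

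TGF-β1 raised Adamtsl2 by 4.91 on the log2 scale in WT and by 4.99 in PKN2 KO (SE 0.31 each), and it ranked 3 from the highest of 238 genes in both genotypes. The ratio of reads per factor was 43.9 in WT (21.04 to 110.2) and 35.4 in PKN2 KO (24.6 to 52.8). The change in PKN2 KO minus that in WT, the interaction of genotype and TGF-β1, was 0.09 (SE 0.43). Its sign was not stable. It was -0.27 in an edgeR fit of the reads and 0.76 with a pseudocount of 5, and in fits that left out 1 library it ran from -0.11 to 0.28.

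Adamtsl3, a glycoprotein of the family also known as punctin-2, showed another pattern, in which the order of the genotype means turned with treatment. In WT vehicle its normalized counts were 275.0, 180.4 and 208.0 (221.1 ± 48.6), and in PKN2 KO vehicle they were 377.4, 354.0 and 340.2 (357.2 ± 18.8). Every PKN2 KO vehicle library was thus above every WT one. In WT TGF-β1 they were 747.0, 536.6 and 663.0 (648.9 ± 105.9), and in PKN2 KO TGF-β1 they were 545.8, 426.4 and 450.4 (474.2 ± 63.1). After TGF-β1 the WT libraries were the higher ones but overlapped, since the lowest of them was below the highest PKN2 KO library. The library lettered A was the highest of its group in all 4 groups.

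For Adamtsl3 the log2 difference of PKN2 KO from WT was 0.71 in vehicle (SE 0.19) and -0.45 after TGF-β1 (SE 0.19). Its mean after TGF-β1 was 2.93 times that in vehicle in WT (log2 1.56, SE 0.19) and 1.33 times that in PKN2 KO (log2 0.40, SE 0.19), with treated and untreated libraries apart in both genotypes. The interaction was -1.16 (SE 0.26), the 10th lowest of 238 genes. In fits that left out 1 library each it ran from -1.33 to -1.02, and the difference in vehicle from 0.58 to 0.88.

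Adamtsl5, which binds fibrillin-1 and heparin, was the member that fell with TGF-β1. In WT vehicle its normalized counts were 1206, 2278 and 2375 (1953 ± 649), and in PKN2 KO vehicle they were 2382, 2531 and 2512 (2475 ± 81.3). The groups did not overlap, but the highest WT library and the lowest PKN2 KO library were only 6.38 apart, within the exact Poisson interval of either library (2281 to 2472 and 2279 to 2488). In WT TGF-β1 they were 585.3, 1076 and 1118 (926.1 ± 295.9), and in PKN2 KO TGF-β1 they were 1466, 1437 and 1555 (1486 ± 61.6). Here the lowest PKN2 KO library was 319.2 above the highest WT library. In WT the library lettered A stood far below the others in both treatments, and the spread of Adamtsl5 in WT (33.2% and 32.0% of the mean) was larger than in PKN2 KO (3.28% and 4.14%).

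The log2 difference of PKN2 KO from WT for Adamtsl5 was 0.40 in vehicle (SE 0.27) and 0.74 after TGF-β1 (SE 0.27). Both rested in part on the WT libraries lettered A. Without them, a choice made after seeing the data, the differences were 0.09 and 0.44. With TGF-β1 Adamtsl5 fell 2.11-fold in WT (log2 -1.07) and 1.67-fold in PKN2 KO (log2 -0.74), with no overlap in either genotype, and the interaction was 0.33 (SE 0.39). In fits that left out 1 library the interaction ran from 0.03 to 0.65.

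**Figure D1:**
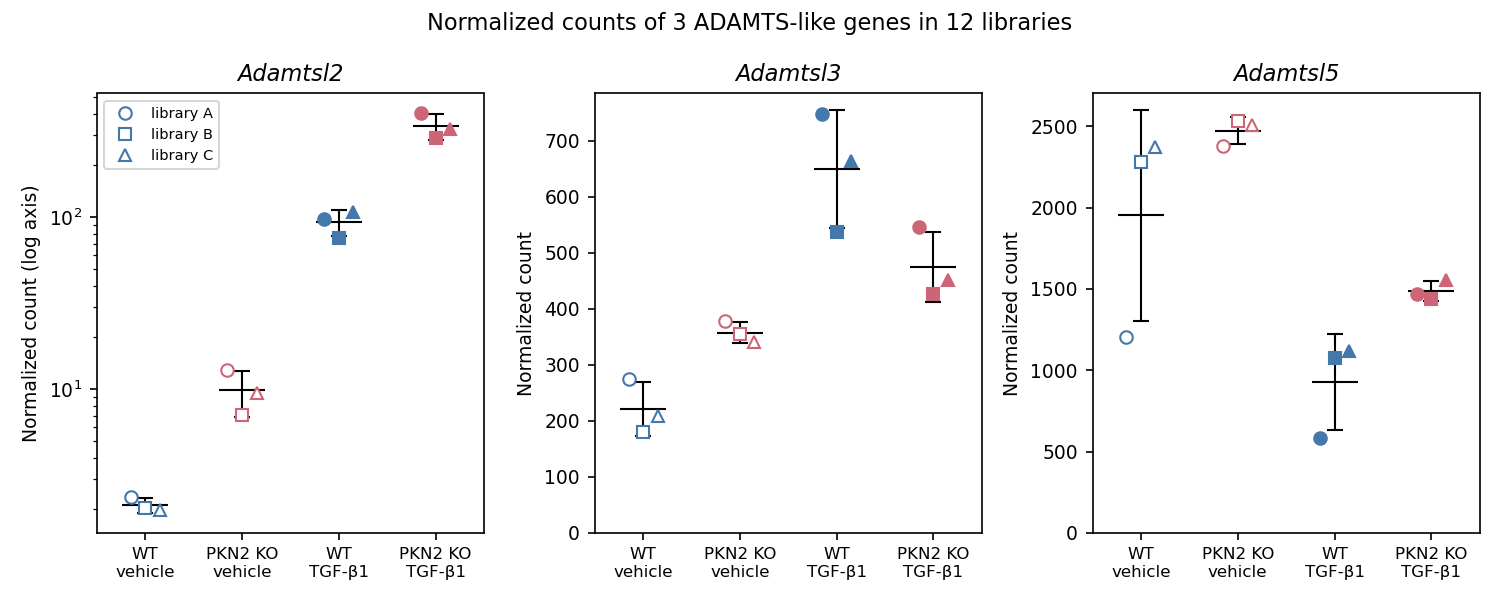
Normalized counts (reads divided by the authors' factor) of Adamtsl2 (log axis), Adamtsl3 and Adamtsl5 (linear axes from 0) in the 4 groups, with 1 point per library and horizontal bars and whiskers for the mean ± SD (n = 3). Adamtsl2 rose from 2.12 in WT vehicle to 338.8 in PKN2 KO TGF-β1, Adamtsl3 was highest in WT TGF-β1, and the WT libraries lettered A were the lowest for Adamtsl5 in both treatments.

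Ordered by mean level, Adamtsl2 ran WT vehicle, PKN2 KO vehicle, WT TGF-β1, PKN2 KO TGF-β1, and all neighbours were apart. For Adamtsl3 the order was WT vehicle, PKN2 KO vehicle, PKN2 KO TGF-β1, WT TGF-β1, and the last pair overlapped. For Adamtsl5 it was WT TGF-β1, PKN2 KO TGF-β1, WT vehicle, PKN2 KO vehicle, where PKN2 KO TGF-β1 and WT vehicle overlapped. So TGF-β1 placed Adamtsl2 and Adamtsl3 in their upper groups and Adamtsl5 in its lower ones.

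All 3 genes passed the filter on low values (10 or more normalized counts in no fewer than 3 libraries), but Adamtsl2 reached 10 in 7 libraries, of which 6 were treated with TGF-β1, so it passed only through the groups where it was high. In PKN2 KO against WT the libraries were apart for all 3 genes in vehicle, where 32.4% of the 238 genes tested had them apart. After TGF-β1 they were apart for 2, with 28.2% over all genes. In TGF-β1 against vehicle they were apart for all 3 in WT, with 55.9% over all genes, and for all 3 in PKN2 KO, with 52.9%. Since the genes were chosen on these libraries, nothing is read from these counts.

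The factors bear on the sizes. The median log2 difference of PKN2 KO from WT in vehicle over all tested genes was 0.21 when the deposited normalization was kept and -0.02 with median-of-ratios factors over all genes. Relative to the median with the authors' factors, the difference in vehicle was 1.55 for Adamtsl2, 0.50 for Adamtsl3 and 0.20 for Adamtsl5. With median-of-ratios factors these values were 1.60, 0.50 and 0.20. No scaling tried turned the sign of a difference between genotypes or treatments in the 3 genes.

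**Figure D2:**
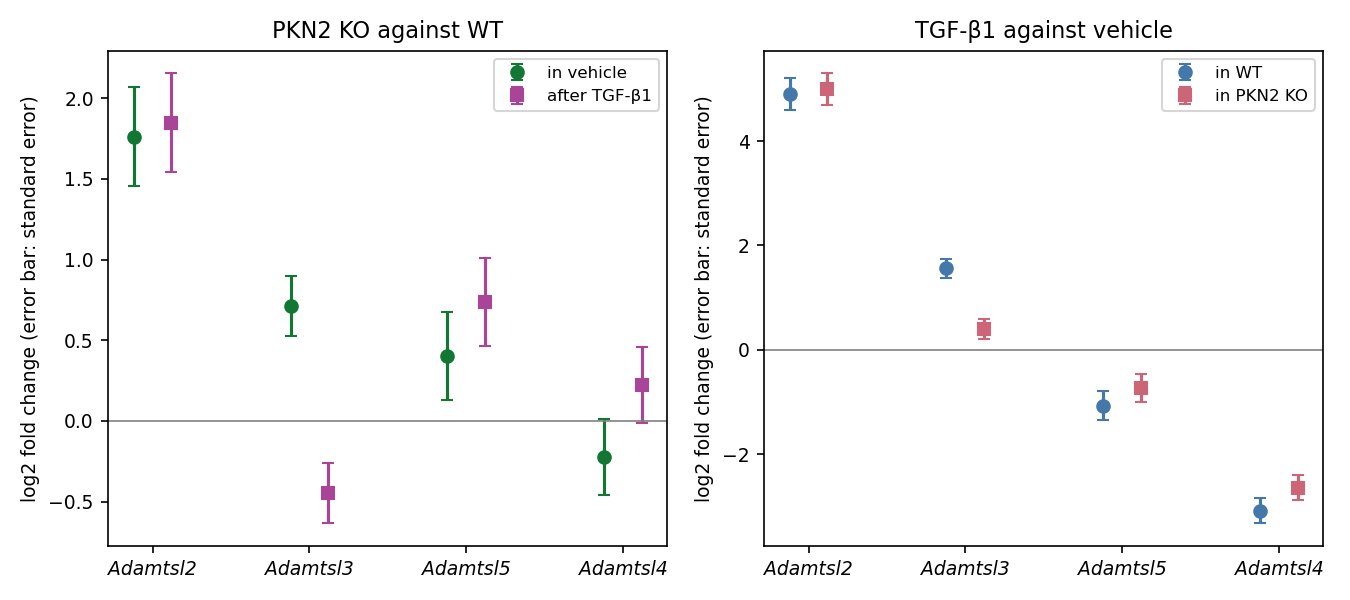
Log2 fold changes (log2 of normalized count + 1) of Adamtsl2, Adamtsl3, Adamtsl5 and Adamtsl4 for PKN2 KO against WT (left, by treatment) and for TGF-β1 against vehicle (right, by genotype), with whiskers for 1 standard error. Adamtsl3 lay at 0.71 in vehicle and -0.45 after TGF-β1 on the left, and on the right the genes ran from 4.99 for Adamtsl2 to -3.09 for Adamtsl4.

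The rest of the family was different again. Adamtsl4, which promotes fibrillin-1 microfibrils in the eye, was no member of the chosen set and is tested here. Its normalized counts in WT vehicle were 382.3, 478.4 and 466.4 (442.4 ± 52.3) and in WT TGF-β1 were 35.4, 58.5 and 63.4 (52.4 ± 15.0). In PKN2 KO vehicle they were 396.1, 354.0 and 382.6 (377.6 ± 21.5), and in PKN2 KO TGF-β1 they were 53.3, 56.7 and 69.6 (59.9 ± 8.56). Every treated library was far below every untreated one. Adamtsl4 fell by 3.09 on the log2 scale in WT (SE 0.24, limma adjusted p = 5.4e-08) and by 2.64 in PKN2 KO (SE 0.24, limma adjusted p = 3.0e-07). Between genotypes it differed by -0.22 in vehicle (limma adjusted p = 0.62) and 0.22 after TGF-β1 (limma adjusted p = 0.63), with overlapping libraries. Adamtsl1 and Thsd4 had too few reads to describe, at most 1.17 and 2.12 normalized counts in any library, and were not tested.

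Profiles over the 12 libraries were compared by the root mean square (RMS) difference of log2 values, each gene centred on its own mean. A smaller RMS difference is a closer match. Adamtsl2 was closest to Smoc2 (0.57), a matricellular calcium-binding protein, then to Cdh6 (0.78), a cadherin, Edil3 (1.07), an integrin ligand, and Itgb3 (1.20), an integrin subunit, against a median of 2.66 over all genes. Smoc2 likewise had its lowest mean in WT vehicle (6.21) and its highest in PKN2 KO TGF-β1 (449.3).

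Adamtsl3 was closest to Fbn1 (0.27), which encodes the microfibril protein fibrillin-1, then to Thbs1 (0.28), Lox (0.30), a collagen and elastin crosslinking enzyme, and Lamb1 (0.30), a laminin chain, against a median of 0.84. The order of the genotype means turned with treatment in Fbn1, Thbs1 and Lamb1 too. In Lox it did not, since its mean after TGF-β1 was 23349 in PKN2 KO and 21852 in WT. Adamtsl5 was closest to Mmp11 (0.29), a matrix metalloproteinase, then to Lamb2 (0.33), Thbs3 (0.37) and Adamts10 (0.40), against a median of 0.82. Mmp11 and Thbs3, like Adamtsl5, had the higher mean in PKN2 KO in both treatments. After TGF-β1 the PKN2 KO mean was the lower in Lamb2 (1435.5 against 1556) and in Adamts10 (329.8 against 335.2). A profile with no change at all would stand at 2.64 from Adamtsl2, at 0.60 from Adamtsl3 and at 0.62 from Adamtsl5. Among the family members themselves the RMS difference ran from 1.04 between Adamtsl5 and Adamtsl4 to 4.02 between Adamtsl2 and Adamtsl4. All points of a profile share the libraries and their factors.

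Among the relatives with a protease domain, 19 ADAMTS genes were in the tables, 15 had a read and 11 could be tested. A gene was called at a Benjamini-Hochberg adjusted p under 0.05 in limma. In PKN2 KO against WT in vehicle 1 of the 11 was called, where 13.9% of all 238 genes were, the aggrecanase gene Adamts5 (-1.15, SE 0.26, limma adjusted p = 0.0086), and the median over the list was -0.31 beside 0.21 over all 238 genes. Without WT vehicle C, Adamts5 was not called. After TGF-β1 1 was called, where 15.1% of all genes were, Adamts14, a procollagen N-proteinase, which was lower in PKN2 KO (-1.64, SE 0.21, limma adjusted p = 8.5e-05), and the median was 0.06 beside 0.13.

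With TGF-β1 in WT, 8 of the 11 ADAMTS genes were called, where 50.8% of all genes were, 4 of them higher and 4 lower, with a median over the 11 of -0.42 beside 0.00 over all genes. Among those called the largest rises were in Adamts6 (2.17), Adamts7 (2.05) and the aggrecanase gene Adamts4 (1.91), and the largest falls in Adamts5 (-4.61), Adamts9 (-4.07) and Adamts1 (-0.93). In PKN2 KO 9 were called, where 48.7% of all genes were, 4 higher and 5 lower, with a median over the 11 of -0.55 beside -0.14. The called genes with the largest changes were Adamts4 (2.06), Adamts7 (2.02) and Adamts12 (1.64) among those higher and Adamts5 (-4.17), Adamts9 (-2.54) and Adamts14 (-1.64) among those lower. The interaction, which called 3.36% of all genes, called 1 of the 11, Adamts14 (-1.33, SE 0.30, limma adjusted p = 0.026), which held in 4 of 12 fits that left out 1 library, and the median of the list was 0.15 beside -0.07.

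Of the microfibril and elastic fibre genes, 14 were in the tables and 10 could be tested. In vehicle 1 of the 10 was called between genotypes, where 13.9% of all genes were. This was Efemp1, a fibulin, which was lower in PKN2 KO (-0.82, SE 0.23, limma adjusted p = 0.028). The list's median was 0.08 beside 0.21 over all genes. After TGF-β1 2 were called, where 15.1% of all genes were. These were the crosslinking enzyme gene Loxl2 (-1.34, SE 0.35, limma adjusted p = 0.018) and Efemp1 (-0.81, SE 0.23, limma adjusted p = 0.026). Both were lower in PKN2 KO, and the median was -0.14 beside 0.13. Efemp1 was called in 8 of the 12 fits that left out 1 library, in each treatment, and Loxl2 in 9. The calls of Efemp1 ended without library A or C of WT and without library A of PKN2 KO in both treatments, and also without PKN2 KO B in vehicle or C after TGF-β1. The call of Loxl2 ended without WT TGF-β1 A or C or PKN2 KO TGF-β1 B.

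With TGF-β1 4 of the 10 were called in WT, where 50.8% of all genes were, and 3 in PKN2 KO, where 48.7% were. In WT TGF-β1 raised Fbn1 (1.21, SE 0.28) and Lox (0.88, SE 0.27) and lowered Efemp1 (-7.22, SE 0.23) and the fibulin gene Fbln5 (-2.37, SE 0.29). In PKN2 KO it lowered Efemp1 (-7.22), Fbln5 (-3.09) and Loxl1 (-0.48). Lox was not called without WT vehicle B or WT TGF-β1 A, nor Loxl1 without PKN2 KO TGF-β1 C. The medians of the list were 0.14 beside 0.00 in WT and 0.06 beside -0.14 in PKN2 KO. For the interaction limma called 0 of the 10, where it called 3.36% of all genes, with 2 at an unadjusted p under 0.05. Of the list edgeR and DESeq2 called 0 each, while the median was -0.25 beside -0.07.

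**Figure D3:**
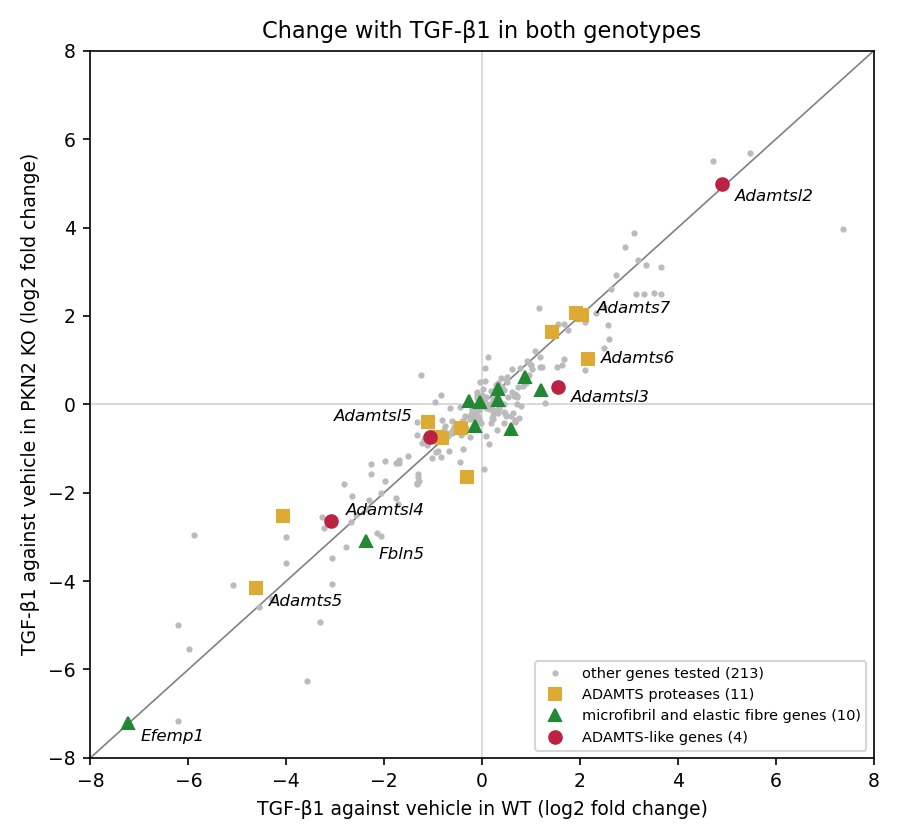
Log2 fold change with TGF-β1 against vehicle in WT (horizontal) and in PKN2 KO (vertical) for the 238 genes tested, with the ADAMTS-like genes as circles, the ADAMTS proteases as squares, the microfibril and elastic fibre genes as triangles and the diagonal of equal change. Adamtsl2 lay near the diagonal at 4.91 and 4.99, whereas Adamtsl3 lay below it at 1.56 and 0.40.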

How the data were processed

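Targeted RNA-seq was available for 12 libraries, 3 in each of 4 groups of genotype and treatment, taken from the labels. The authors deposited a table of raw counts and 2 of normalized counts. The normalized counts are a signal for which the authors divided all counts of a library by the same factor (0.731 to 1.48 by library). Vehicle and TGF-β1 libraries were in separate tables of normalized counts, so every difference between treatments crosses the 2. The submitters' processing notes name STAR, DESeq2 1.32 and mm10. Of the columns of raw counts, 6 could not be assigned to a library and were not used. Their labels named PKN2 KO vehicle in 2 sets, and no column was labelled WT TGF-β1. The other 6 columns were of WT vehicle and PKN2 KO TGF-β1, so PKN2 KO vehicle and WT TGF-β1 had no raw counts to compare. The factor of each library was sought with a tolerance of 0.01 reads for a whole multiple. Reads recovered from the normalized tables, rounded to whole numbers, were equal to the other 6 columns for all 420 genes. Recovered reads of all libraries served for totals, scalings and count tests. All identifiers matched symbols.

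The 238 genes that reached a normalized count of 10 in 3 or more libraries were fitted with limma 3.58.1 (R 4.3.3) on log2(normalized count + 1), with 1 mean per group, eBayes with trend and robust estimation, and Benjamini-Hochberg adjustment. Alternatives were edgeR 4.0.16 and DESeq2 1.42.0 on the recovered reads, other factors, filters and pseudocounts, the replicate letter as a block, and each library left out. Scripts were tested on simulated data. Named genes were the family, in the ADAMTS and microfibril lists up to 3 called genes per direction, by size of change, and the 4 closest profiles. The genes and lists were chosen with earlier results of these data known. One listed leukocyte marker is not reported here. Precision was limited by 3 libraries per group and, for Adamtsl2, by reads.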

Additional observations from a re-analysis of the deposited data

Results flagged for a closer look

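The response of Adamts14 to TGF-β1 differed between the genotypes by the test of the interaction (-1.33 on the log2 scale, SE 0.30, limma adjusted p = 0.026). The log2 change with TGF-β1 was -0.31 in WT and -1.64 in PKN2 KO. The interaction passed the threshold in 4 of 12 fits that left out 1 library each, those without WT vehicle A or B, WT TGF-β1 B or PKN2 KO TGF-β1 A.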

How the results depend on the processing

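Adamtsl2, Adamtsl3 and Adamtsl5 kept the direction of each difference between genotypes or treatments in every fit run, and the sign of an interaction changed for Adamtsl2 alone. With a pseudocount of 5 the difference of Adamtsl2 between genotypes in vehicle was 1.04, its change with TGF-β1 3.78 in WT and 4.54 in PKN2 KO, and its interaction 0.76. With edgeR the difference in vehicle was 2.12, the change in WT 5.40 and the interaction -0.27, and with DESeq2 they were 2.18, 5.47 and -0.32. Adamtsl2 could not be tested among genes with at least 10 in every library. Adamtsl3 in vehicle was 0.48 with median-of-ratios factors. With total counts its change with TGF-β1 was 1.31 in WT and 0.20 in PKN2 KO, where the main fit gave 0.40 in PKN2 KO. Without WT TGF-β1 A the difference of Adamtsl4 after TGF-β1 turned to -0.033, and its fits without 1 library ran from -0.033 to 0.38. The causes were not tested.

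Genes called between genotypes after TGF-β1 numbered 56 with TMM and 65 with total counts in place of 36, and interactions 4 without trend and robust estimation in place of 8. Leaving out 1 library gave 17 to 38 genes called in vehicle (33 with all libraries) and 0 to 11 interactions. For ADAMTS genes called between genotypes it gave 0 to 2 in vehicle and 1 to 3 after TGF-β1, and 0 to 1 interactions. For microfibril genes it gave 0 to 1 in vehicle and 0 to 2 after TGF-β1. ADAMTS genes called were 2 in vehicle with TMM and 3 with median of ratios, 2 after TGF-β1 with each of 3 other factor sets, and 0 interactions with total counts. Microfibril genes called were 2 in vehicle with median of ratios or total counts and 0 without trend and robust estimation. After TGF-β1 they were 4 with each of the other factor sets and 1 with edgeR or DESeq2. For TGF-β1 in PKN2 KO they were 5 with no filter or total counts, and the interaction called 1 with total counts.

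The main fit did not use the letters, and no source says whether they pair the libraries. Deviations from the group means correlated over 0.1 in 13 of 18 same-lettered pairs, from -0.23 to 0.70 with a mean of 0.39. The correlations ran from 0.35 to 0.70 in pairs lettered A or B, and from -0.23 to 0.14 in those lettered C. With the letter as a replicate block, genes called were 87 in vehicle, 101 after TGF-β1 and 42 for the interaction, and without trend and robust estimation 73, 91 and 20. In the first of these fits the prior degrees of freedom were infinite for 197 of 238 genes, and whether its p-values are too small was not tested. ADAMTS genes called under the replicate block were 4 in vehicle, 4 after TGF-β1 and 2 interactions, and in the second fit 4 and 4 between genotypes. Microfibril genes called under the replicate block were 2, 5, 7 (TGF-β1 in WT), 7 (in PKN2 KO) and 3 interactions, and in the second fit 2, 4, 5 (in PKN2 KO) and 2. The letters are balanced over the groups, so the block could not move the size of a difference, for example 1.76 for Adamtsl2 in vehicle.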

Other observations

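Of other genes with thrombospondin type 1 repeats 6 were in the tables and 5 could be tested, and the genes named here were chosen after their values were seen. In vehicle 1 of the 5 was called between genotypes, where 13.9% of all genes were. This was Thsd7a, which was lower in PKN2 KO (-0.81, limma adjusted p = 0.018). After TGF-β1 3 were called, where 15.1% of all genes were. All were lower in PKN2 KO, namely Thsd7a (-1.44), Ccn2 (-1.17), which encodes a matricellular growth factor, and Thbs1 (-0.90), which encodes thrombospondin-1. The median over the list was -0.90 beside 0.13 over all genes tested, where 15 genes were called lower and 21 higher. With TGF-β1 3 of the 5 were called in WT, where 50.8% of all genes were, and 2 in PKN2 KO, where 48.7% were. TGF-β1 raised Thbs1 (1.54), Ccn2 (1.28) and Thbs2 (0.78) in WT, and in PKN2 KO it raised Thbs2 (0.82) and lowered Thsd7a (-1.01). The interaction called 1 of the 5, where it called 3.36% of all genes. This was Ccn2 (-1.26, SE 0.31, limma adjusted p = 0.039), called in 3 of 12 fits that left out 1 library. Of the list edgeR called 0 and DESeq2 2. Thsd7a in vehicle was not called without WT A or PKN2 KO A or C, Thbs1 between genotypes not without WT TGF-β1 A or C, and Thbs2 was called in 8 of 12 such fits in each genotype.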
